A study of Zea mays subsp. mays with 2 samples.

Results

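The transcribed loci that lie far from others in the maize genome were described, 1318 of 29674 loci in the deposited table (4.44%). Chromosomes 1 to 10 were cut into windows of 1 Mb, counted from base 0, and each locus was placed by its start. A locus was taken where its window held 1 to 5 distinct positions, a position being 1 pair of start and end. Such windows are called gene-poor here by their listed positions alone, since genes were not counted. The 1318 loci sat at 1181 positions in 327 of the 2057 windows with any listed locus, and 7 further windows between the first and the last locus of a chromosome held none. They were set beside the 11227 loci of the 386 windows with 20 or more positions, called dense here. Both sets come from roots and shoots of inbred B73 plants, with no treatment named in the labels, collected 14 days after germination. Polyadenylated RNA of each organ was sequenced as 1 library, with paired ends and no record of strand. The labels do not give the number of plants, and each library mixes all cell types of its organ.

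Maize chromosomes carry most of their genes toward both ends, and the broad regions around the centromeres are filled mainly with retrotransposons. Genes there stand far apart as islands between repeats, recombination is rare, and introns are often lengthened by inserted transposable elements. The table pairs no locus with a gene, so what each locus encodes is not given here, and coding loci could not be told from noncoding ones. Values are FPKM, fragments per kilobase of transcript and per 1000000 mapped fragments. The labelled organs were checked on the plastid genome, where all 15 loci were higher in shoot, with summed levels of 11.4 FPKM in root against 328 FPKM in shoot. With 1 library per organ there is no spread between replicates, so differences between organs have no p-value and compare these 2 libraries. From the steps of the low values, 1 FPKM on 1000 effective bases rested on about 131 fragments in root and 113 in shoot.

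The gene-poor windows lay in the middle of the chromosomes, and the dense ones toward the ends. Place is given in percent of the way from the first to the last listed locus of a chromosome. The gene-poor windows had a median place of 40.3%, with quartiles of 30.8% and 48.9%. Between 30% and 60% lay 222 of the 327 gene-poor windows (67.9%) and 4 of the 386 dense windows (1.04%). The rule fixes how few positions a gene-poor window holds, but not where it lies. Exceptions lay at the ends themselves. The last window of 7 chromosomes and the first window of 1 counted as gene-poor, with 24 and 3 loci, and a last window can be cut short by the chromosome's end.

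**Figure D1:**
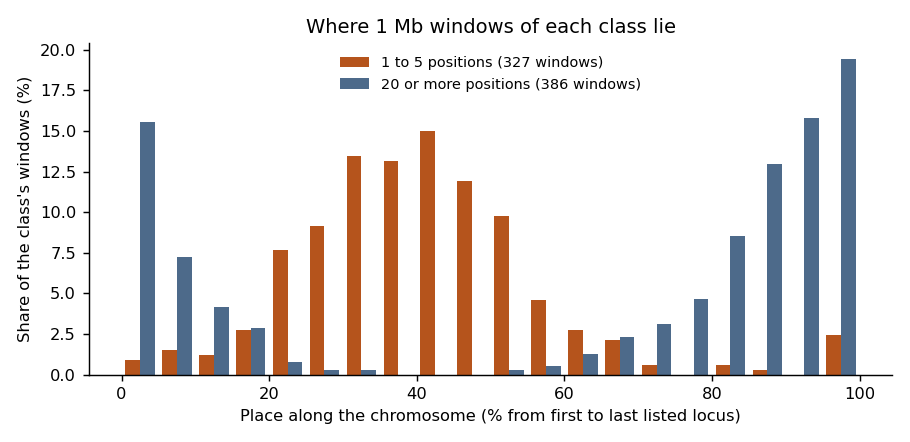
Share of windows in each 5% of the chromosome's length (x axis, percent of the way from the first to the last listed locus), for windows of 1 to 5 positions and windows of 20 or more. Gene-poor windows peak at 14.98% of their class between 40% and 45%, where no dense window lies, and dense windows peak at 19.4% of theirs in the last 5%.

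All 10 chromosomes contributed. Chromosome 8 had the fewest gene-poor windows, 24, and chromosome 2 the most, 45. Gene-poor loci were 2.72% of the loci of chromosome 1 and 6.27% of those of chromosome 7. The median distance from a position to the nearest other one was 90757 bases in gene-poor windows and 3784 bases in dense ones, as the rule implies. Even so, 66 of the 1181 gene-poor positions (5.59%) had a neighbour within 1000 bases, against 21.9% of the dense positions. Thus some gene-poor loci stood in close pairs.

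Neighbouring windows of 0 to 5 positions formed 173 runs, of which 105 were a single window. The longest was on chromosome 7, from 52 to 68 Mb, with 16 windows, 2 of them empty, and 46 loci at 43 positions. Its loci had medians of 3.86 FPKM in root against 8.64 FPKM in shoot. Of them, 1 (2.17%) was 4-fold or more higher in root and 8 (17.4%) in shoot, against 3.52% and 6.79% of all loci. Those 8 included the short loci chr7:62496018-62496131 and chr7:56613543-56613667, the latter listed at 0 in root. Another was the short locus chr7:57025585-57025692, spanning 107 bases, at 734 FPKM in root, with 4036 FPKM in shoot. The run's 3 longer loci with the highest mean level were chr7:66528658-66534428, chr7:64135726-64136904 and chr7:54626812-54632782. In root they were at 89.97, 29.7 and 72.8 FPKM, and in shoot at 104, 105 and 52.3 FPKM. This stretch was thus not silent, and only chr7:64135726-64136904 of these 3 differed more than 2-fold between the libraries. The next longest run, from 126 to 137 Mb on chromosome 1, held 27 loci in 11 windows, with a median of 1.75 FPKM in root.

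Windows with a single position numbered 26, on all 10 chromosomes, and held 30 loci. Their medians were 11.7 FPKM in root against 9.73 FPKM in shoot, and 25 of the 30 were at 1 FPKM or more in both organs. The most abundant with a span above 300 bases was chr2:137976845-137986925, at 187 FPKM in root, with 239 FPKM in shoot. It was followed by chr3:95264998-95272645, at 143 FPKM in root against 102 FPKM in shoot. The third was the higher of 2 loci at chr3:72853588-72940038, at 33.6 FPKM in root, with 36.3 FPKM in shoot. All 3 differed less than 2-fold between the libraries. Over the 29 of these loci that spanned more than 300 bases, levels ran from 0.0406 to 187 FPKM in root and from 0.133 to 239 FPKM in shoot.

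The 3 longer loci farthest from any other position differed between the organs. The most remote, chr1:135560881-135562782, lay 940275 bases from the nearest position and was at 0.0676 FPKM in root against 1.04 FPKM in shoot. Its root value rested on about 14.8 fragments. The locus chr5:102447451-102448336, 803992 bases from the next, was at 21.8 FPKM in root, with 6.38 FPKM in shoot. The locus chr9:72700829-72702173, 770178 bases from the next, was at 2.57 FPKM in root against 0.133 FPKM in shoot, the last on about 16.9 fragments. The first was thus higher in shoot and the other two in root. None of the 3 reached a log2 ratio of 2, or 4-fold, after 1 FPKM was added to each value.

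Gene-poor loci were transcribed at somewhat lower levels than dense ones. Their median was 6.66 FPKM in root, with quartiles of 1.55 and 21.9, against 9.90 FPKM, with quartiles of 2.94 and 28.1, for dense loci. In shoot the median was 8.19 FPKM, with quartiles of 2.32 and 23.8, against 10.7 FPKM, with quartiles of 3.34 and 27.3. The quartile ranges overlap widely. The gene-poor median was the lower one on 9 of 10 chromosomes in root, chromosome 5 being the exception, and on 9 of 10 in shoot, with chromosome 2 the exception. By chromosome it ran from 4.20 to 10.6 FPKM in root and from 5.12 to 11.8 FPKM in shoot, against 9.17 to 10.9 FPKM and 9.57 to 12.3 FPKM for dense loci. Low levels were more frequent in gene-poor windows. A mean of the organs under 2 FPKM was found for 289 gene-poor loci (21.9%) and 14.0% of dense ones, and a mean above 50 FPKM for 11.5% and 14.2%. Above 1000 FPKM the order was the other way, with 8 gene-poor loci (0.607%) against 0.312% of dense loci in root, and 14 (1.06%) against 0.303% in shoot. Of these, 3 in root and 5 in shoot spanned more than 300 bases, or 0.239% and 0.399% of such gene-poor loci, against 0.227% of such dense loci in each organ.

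The median level was higher with each denser class in both organs. In root it was 6.66 FPKM at 1 to 5 positions, 7.37 at 6 to 9, 9.23 at 10 to 14, 9.36 at 15 to 19, 9.59 at 20 to 29 and 10.7 FPKM at 30 or more. In shoot the medians ran from 8.19 FPKM at 1 to 5 positions to 11.7 FPKM at 30 or more. Windows of exactly 1 position, with 30 loci, had 11.7 FPKM in root and 9.73 FPKM in shoot. Windows were classed by listed positions, and only loci above 1 FPKM in either organ are listed, so class and level are not independent. Across the limit of the rule there was no step: windows of exactly 5 positions had medians of 7.25 FPKM in root, with 8.39 FPKM in shoot, and windows of exactly 6 had 6.57 FPKM in root against 7.86 FPKM in shoot. At the other limit, windows of exactly 20 positions had 9.58 FPKM in root, with 9.48 FPKM in shoot, and windows of exactly 19 had 9.14 and 9.04 FPKM.

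Spans, the distance from start to end with introns included, had the same centre in both classes but spread wider in gene-poor windows. The median was 3672 bases in gene-poor and 3711 bases in dense windows, and the quartiles were 1655 and 9548 bases against 2009 and 6235 bases. Both tails were fuller. Spans above 20000 bases belonged to 171 gene-poor loci (13.0%), against 4.36% of dense loci, with a larger gene-poor share on all 10 chromosomes. Spans of 300 bases or less belonged to 64 gene-poor loci (4.86%), against 1.82% of dense loci, with a larger share on 9 of 10 chromosomes, chromosome 5 excepted. No position in either class overlapped another, so the spans of a window's loci and the number of its positions are not independent.

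**Figure D2:**
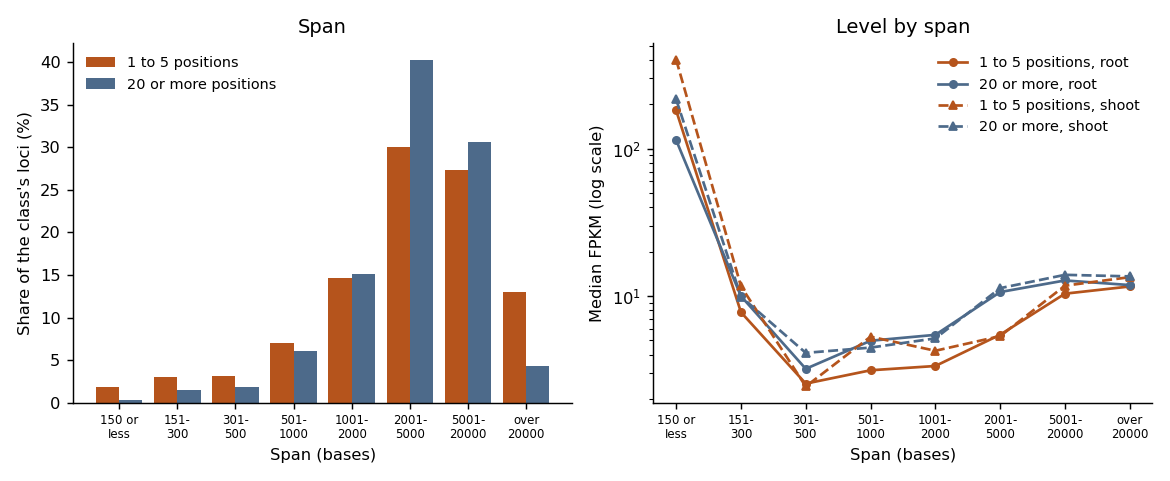
Left, share of each class's loci by span in bases; right, median FPKM on a log scale by span, for root (circles, solid) and shoot (triangles, dashed). Gene-poor windows hold more loci at both ends of the span axis, and at 2001 to 5000 bases their medians are 5.47 FPKM (root) and 5.35 FPKM (shoot), below the 10.7 and 11.3 FPKM of dense windows.

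The lower level was clearest in loci of 2001 to 5000 bases and small in the longest. At spans of 2001 to 5000 bases, the root median was 5.47 FPKM for 396 gene-poor loci and 10.7 FPKM for 4512 dense loci, and the shoot median 5.35 FPKM and 11.3 FPKM. At 1001 to 2000 bases the root median was 3.36 FPKM for gene-poor and 5.46 FPKM for dense loci, and the shoot median 4.26 and 5.17 FPKM. Above 20000 bases the root median was 11.6 FPKM for gene-poor and 11.9 FPKM for dense loci, and the shoot median 13.4 and 13.6 FPKM. In 3 shorter bands the gene-poor median was the higher one. This was seen in shoot at 501 to 1000 bases, with 5.31 FPKM for gene-poor and 4.47 FPKM for dense loci, in shoot at 151 to 300 bases, with 11.7 and 9.93 FPKM, and in both organs at 150 bases or less. Of the long gene-poor loci, 43.9% shared their position with another locus, against 53.9% of the long dense ones. For the 96 long gene-poor loci alone at their position the medians were 15.5 FPKM in root, with 15.97 FPKM in shoot, against 14.8 and 16.8 FPKM for 226 dense ones. Over all spans, 17.9% of gene-poor and 18.2% of dense loci shared a position. Whether each such locus fills its listed span is not given in the sources used here. Nor is how the authors' assembly divided reads among such loci.

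The largest span among gene-poor loci was 356461 bases, at chr2:227600640-227957101, a position that 3 loci shared. In root they were at 35.0, 8.53 and 2.40 FPKM, and in shoot at 27.2, 14.2 and 0.0179 FPKM. The third was thus far higher in root, while the others were within 2-fold. The 3 loci are listed with the same start and end, and whether each fills that whole span is not given. Strand was not recorded either, so the split of reads among them is uncertain.

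Short loci reached very high levels. The 24 gene-poor loci spanning 150 bases or less had medians of 182 FPKM in root against 401 FPKM in shoot. The highest was chr4:55539724-55539826, spanning 102 bases, at 12604 FPKM in root, with 61517 FPKM in shoot. In root it was followed by chr1:168413570-168413675 at 7807 FPKM, listed at 0 in shoot, and by chr3:83782634-83782749 at 2763 FPKM in root against 1050 FPKM in shoot. In shoot it was followed by chr4:88471764-88471870 at 5466 FPKM, listed at 0 in root, and by chr7:57025585-57025692. These spans are below the fitted offset of 230 bases in root and 220 in shoot, so no fragment number was estimated, and a listed 0 can be a failed estimate. No fold is given for them, and their levels should not be set against those of longer loci.

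Among gene-poor loci above 300 bases, 1 outweighed all others. The locus chr3:100803594-100804470, spanning 876 bases, was at 186084 FPKM in root, with 109549 FPKM in shoot. Over spans above 300 bases, it alone made up 84.4% of the summed FPKM of gene-poor loci in root and 73.3% in shoot. With it, such gene-poor loci held 15.05% of the table's summed FPKM in root and 11.7% in shoot. Without it they held 2.68% in root and 3.41% in shoot, beside 4.34% of the loci of that span. Its window held 4 positions.

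The next most abundant longer loci were far below it. The locus chr2:129639285-129640725 was at 4095 FPKM in root against 2308 FPKM in shoot, and chr6:48548123-48549074 at 3807 FPKM in root, with 8027 FPKM in shoot. The locus chr6:30248799-30257598 was at 685 FPKM in root against 413 FPKM in shoot. These 3 differed by 1.66-fold to 2.11-fold between the libraries, in both directions. The remaining loci of the highest 5 in either organ were strongly biased and are given below.

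Gene-poor loci were more often detected in shoot alone than dense ones were. At 1 FPKM or more in both organs were 983 gene-poor loci (74.6%), against 85.5% of dense loci. In shoot alone were 239 (18.1%), against 8.30% of dense loci and 10.3% of all loci. In root alone were 96 (7.28%), against 6.23% of dense loci and 6.48% of all loci. The share in shoot alone was larger in gene-poor windows on all 10 chromosomes, from 14.4% to 22.0% by chromosome against 7.21% to 10.2%. For root alone it was larger on 6 of the 10. With root scaled to the sum of shoot, 17.7% of gene-poor and 7.67% of dense loci were at 1 or more in shoot alone. Every listed locus exceeded 1 FPKM in at least 1 organ, so loci low in both are not listed, and a locus detected in shoot alone is listed through shoot only. RNA from fewer cells of a type and less RNA per cell cannot be told apart in such whole-organ libraries.

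**Figure D3:**
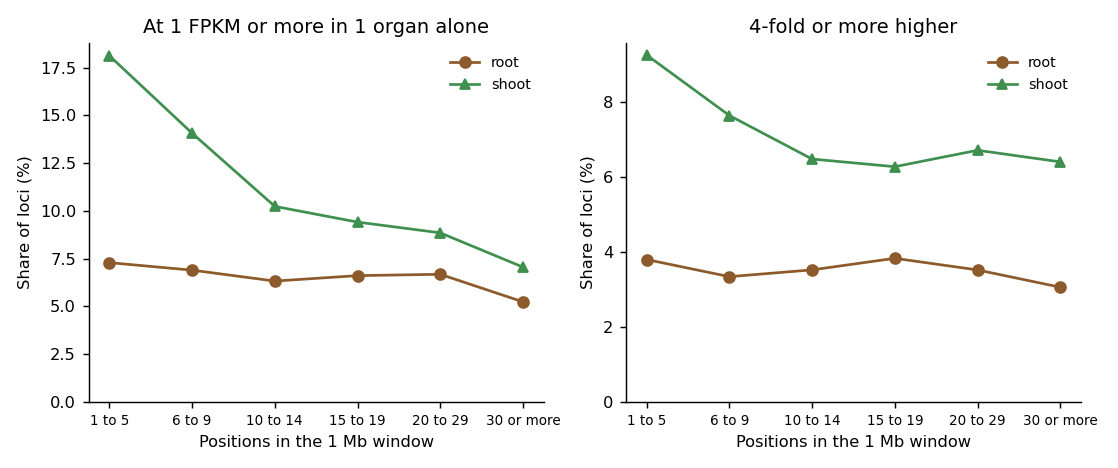
Share of loci (y axis, percent) by the number of positions in their 1 Mb window (x axis), for root (circles) and shoot (triangles). Left, loci at 1 FPKM or more in 1 organ alone; the shoot share is 18.1% at 1 to 5 positions and 7.05% at 30 or more, and the root share lies between 5.23% and 7.28%. Right, loci 4-fold or more higher in 1 organ; the shoot share is 9.26% at 1 to 5 positions and between 6.27% and 7.64% elsewhere.

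The share in shoot alone was lower with each denser class. It was 18.1% at 1 to 5 positions, 14.1% at 6 to 9, 10.2% at 10 to 14, 9.41% at 15 to 19, 8.85% at 20 to 29 and 7.05% at 30 or more. Windows of exactly 5 and exactly 6 positions had 16.01% and 17.7%, so the limit of the rule was no boundary. Within the sparsest class the order was not steady. Windows of exactly 1, 2, 3 and 4 positions had 10% (3 of 30 loci), 20%, 22.8% and 18.9%. The root share changed less, at 7.28% in the sparsest class and 5.23% in the densest, with no steady order between them.

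Of the loci detected in shoot alone, 47.7% were under 2 FPKM in shoot in gene-poor windows, against 43.0% in dense windows and 45.6% of all such loci, shares close to each other. Their shoot median in gene-poor windows was 2.09 FPKM, and 29 of the 239 lay above 10 FPKM. Over loci with a mean of 2 FPKM or more, 6.71% of gene-poor and 3.80% of dense loci were detected in shoot alone, and 3.11% and 1.98% in root alone. With dense loci weighted to the gene-poor loci's levels, 11.004% of dense loci were in shoot alone, against 18.1% of gene-poor ones. These levels are means of the same root and shoot values that set detection, so the weighting cannot separate detection from level. At a mean of up to 2 FPKM, 58.8% of gene-poor and 35.9% of dense loci were in shoot alone. Such loci are listed through shoot only, and whether the difference is independent of level was not tested. By the same weighting 8.78% of dense loci were in root alone, above the 7.28% of gene-poor loci, which reverses the order of the unweighted shares. Yet the gene-poor share in root alone was the larger one in 5 of the 6 bands of level. The exception was a mean of up to 2 FPKM, with 22.1% of gene-poor and 32.3% of dense loci. In each of 6 bands of span above 300 bases the gene-poor share in shoot alone was the larger one, and over spans above 300 bases it was larger in 5 of 6 bands of level.

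Detection at 5 FPKM narrowed the difference. There 10.5% of gene-poor and 8.58% of dense loci were detected in shoot alone. The difference between the classes was 1.89 percentage points at that level, against 9.83 points at 1 FPKM.

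**Figure D4:**
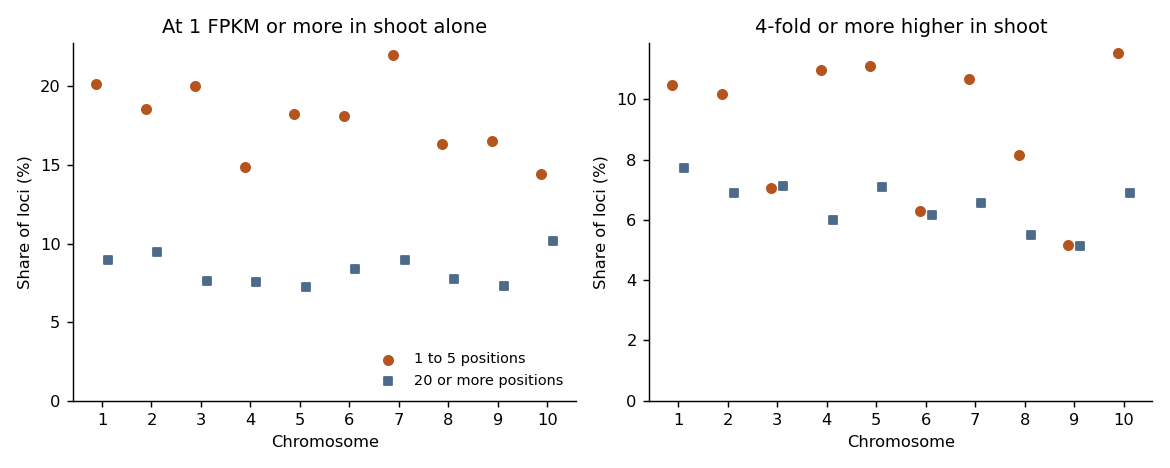
Share of loci (y axis, percent) on each of the 10 chromosomes (x axis), for windows of 1 to 5 positions (circles) and of 20 or more (squares). Left, loci at 1 FPKM or more in shoot alone, where every circle lies above its square; right, loci 4-fold or more higher in shoot, where the circle lies above the square on 9 of 10 chromosomes.

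Strong organ bias was called at a log2 ratio of 2, or 4-fold, on the scale of log2(FPKM + 1), with root over shoot. The added 1 makes folds of low loci look smaller than they are. By this call 50 gene-poor loci were higher in root, 3.79%, against 3.38% of dense loci and 3.52% of all loci. Higher in shoot were 122, or 9.26%, against 6.62% of dense loci and 6.79% of all loci. At 4-fold the root share of gene-poor loci was near that of all loci. The shoot share was larger than in dense windows on 9 of 10 chromosomes, from 5.15% to 11.5% by chromosome against 5.13% to 7.71%, but on chromosomes 6 and 9 by less than 0.2 percentage points. Chromosome 3 was the exception, with 7.06% against 7.14%. At 8-fold the shoot shares were 3.95% of gene-poor and 3.61% of dense loci, beside 3.50% of all loci, and the root shares lay further apart, at 1.97%, 1.13% and 1.28%. At 32-fold the shoot shares were 1.29% and 1.13%, beside 1.08% of all loci, and 0.455% and 0.196% in root, beside 0.219% of all loci.

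Over spans above 300 bases, 8.45% of gene-poor and 6.56% of dense loci were higher in shoot. In each of 6 bands of mean level of such loci the gene-poor share was the larger one, and dense loci weighted to the gene-poor levels had 5.83%. These levels are means of the same root and shoot values that set the call, so the bands cannot separate bias from level. By span the gene-poor share was larger in 3 of 6 bands. At 5001 to 20000 bases it was 10.6% against 5.24%, at 1001 to 2000 bases 9.84% against 10.4%, and at 2001 to 5000 bases 5.05% against 6.14%. With root scaled to the sum of shoot, the shoot shares over all spans were 8.88% in gene-poor and 6.35% in dense windows.

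The balance of all differences, large and small, stood further toward shoot in gene-poor windows. Of the 1318 gene-poor loci, 719 (54.6%) were higher in shoot as deposited, against 44.7% of dense loci, and with root scaled to the sum of shoot 49.1% against 38.4%. Gene-poor windows had a median log2 ratio, root over shoot, of -0.09, and dense windows one of 0.08. Dividing root by the median ratio gave -0.17 and -0.02, and scaling it to the sum of shoot gave 0.01 and 0.18. The sign in each class therefore depended on the scaling between the libraries. The gene-poor median was the lower under all 3, but each gave both classes the same root factor, so this order could hardly change.

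**Figure D5:**
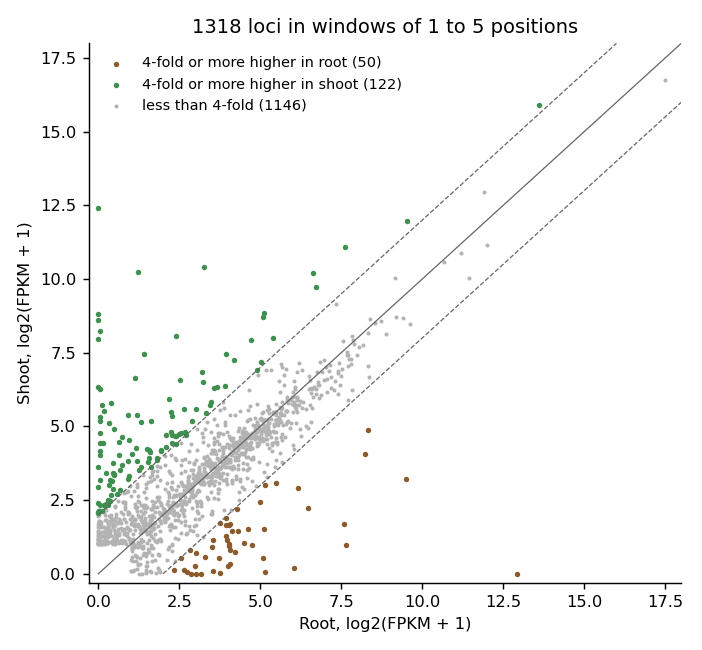
Level of each of the 1318 gene-poor loci in root (x axis) and shoot (y axis), both as log2(FPKM + 1), with the line of equality and dashed lines at 4-fold. The 50 loci higher in root lie below the lower dashed line and the 122 higher in shoot above the upper one. Of the 151 loci with a mean above 50 FPKM, 6 (3.97%) were higher in root and 25 (16.6%) in shoot. Of dense loci at that level, 3.45% were higher in root and 11.8% in shoot. Over spans above 300 bases at that level, 3.33% of gene-poor and 3.22% of dense loci were higher in root. In shoot these shares were 13.3% and 11.5%.

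The loci higher in shoot had medians of 1.21 FPKM in root against 24.0 FPKM in shoot, and 63 of the 122 were still at 1 FPKM or more in root. Root listed 10 of them at 0, and 16 spanned 300 bases or less. The loci higher in root had medians of 15.6 FPKM in root against 0.984 FPKM in shoot, with 23 of the 50 at 1 FPKM or more in shoot and 4 listed at 0 there.

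Named loci were ranked by the log2(FPKM + 1) ratio, which favours abundant ones, while folds are given on FPKM alone. Toward root, the largest ratio among longer loci above 0 in both organs was at chr10:717205-895755 (XLOC_006919), in the first window of its chromosome. It was at 199 FPKM in root, with 0.982 FPKM in shoot, or 203-fold. The locus chr3:97014008-97018355 (XLOC_015401) followed, at 723 FPKM in root against 8.30 FPKM in shoot, or 87.1-fold. The locus chr3:51498308-51499773 was at 190 FPKM in root, with 2.22 FPKM in shoot, or 85.6-fold. On chromosome 9, 2 loci of 1 window were far higher in root. The locus chr9:63895532-63896324 was at 64.7 FPKM in root against 0.140 FPKM in shoot, and the exact 95% Poisson interval of the shoot value ran from 0.0636 to 0.264 FPKM. The locus chr9:63685017-63685681 was at 34.2 FPKM in root, with 0.0405 FPKM in shoot, on about 2.03 shoot fragments, and its interval ran from 0.00482 to 0.144 FPKM. Both intervals hold counting error alone.

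Toward shoot, the largest ratio by the same ranking was at chr6:54213165-54213985 (XLOC_026209), with 1.32 FPKM in root against 1204 FPKM in shoot, or 915-fold. The locus chr9:75779775-75780946 (XLOC_037650) was at 0.0313 FPKM in root, on about 3.85 fragments, and at 299 FPKM in shoot. Its root value had an interval of up to 0.0834 FPKM. On chromosome 2, chr2:90891247-90891971 was at 8.53 FPKM in root, with 1356 FPKM in shoot, or 159-fold. In the same window, chr2:90378017-90380006 was at 0.0255 FPKM in root, on about 5.85 fragments, and at 76.7 FPKM in shoot. The fifth, chr2:100903886-100905321, was at 1.65 FPKM in root against 175 FPKM in shoot, or 106-fold. The highest shoot level of these 5 was above the highest root level of the 5 toward root, 1356 against 723 FPKM. Both sets were picked by a ranking that favours abundant loci, so this compares the picked loci only.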

How the data were processed

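The authors' deposited table gives FPKM per assembled locus for 1 root and 1 shoot library. The submitters' processing notes list TopHat, Cufflinks and Cuffdiff. Versions, settings and any scaling of the libraries to each other: not given in the sources used here. The file headers name B73 RefGen_v2 as the build, and positions are printed as deposited. Every listed locus exceeded 1 FPKM in root, shoot or both, and 0 sample columns were left unused. The members, bands and rules for named loci were chosen with earlier results of these data known. Named longer loci are the 5 highest in each organ, the 5 with the largest log2 ratio in each direction among those above 0 in both, the 3 of largest span, the 3 most remote and the 3 most abundant alone in a window, and among spans of 300 bases or less the 3 highest in each organ. The loci of the longest run are also named. Of these, the run's loci are given in part, and identifiers are limited to 2 in each direction.

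The 47 loci off chromosomes 1 to 10 were in no window. Total counts were not used here. The worth of 1 fragment was fitted to the low values of 174 root and 113 shoot loci, of which 62.1% and 56.6% came within 0.1 of a whole fragment; estimates from whole spans overstate fragments where introns are present. With 1 library per organ and loci that are not replicates, no p-value was computed. Pseudocounts, thresholds, scalings, window limits and filters were varied. A gene table of a later assembly matched 0 of the loci by name. Sequences are not printed, since no genome of this build was used here. Windows, calls and the fragment fit were tested on simulated data. The work was done in Python 3.11.15, with scipy 1.17.1 for intervals, pandas 2.3.3 and numpy 2.4.6 for tables, and matplotlib 3.10.9.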

Additional observations from a re-analysis of the deposited data

How the results depend on the processing

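Of the 19 alternatives tried, 2 were chosen after seeing the data. These 2 were leaving out the first and last windows of chromosomes, and scaling root to the sum of shoot. The shoot-biased share was recomputed in 17 alternatives, the shoot-only share in 13 and the median levels in 10. Wherever recomputed, both shares stayed larger in gene-poor than in dense windows, and the median level stayed lower in both organs. The counts of biased gene-poor loci followed the settings. A pseudocount of 0.1 gave 86 higher in root (6.53%, dense 6.06%) and 248 in shoot (18.8%, dense 9.53%). A pseudocount of 5 gave 15 (1.14%, dense 1.26%) and 54 (4.10%, dense 3.78%). A threshold of 2-fold gave 141 (10.7%, dense 11.8%) and 304 (23.1%, dense 13.5%). At 8-fold there were 26 (1.97%, dense 1.13%) and 52 (3.95%, dense 3.61%). Equal sums of 1000000 gave 41 (3.11%, dense 2.52%) and 79 (5.99%, dense 4.97%). They multiplied root by 0.499 and shoot by 0.461 and so also raised the pseudocount relative to the values. Root scaled to the sum of shoot gave 54 (4.10%, dense 3.82%) and 117 (8.88%, dense 6.35%). Windows of 1 to 3 positions held 13 (3.77%) and 42 (12.2%) among 345 loci. Windows of 1 to 8 held 140 (3.30%) and 353 (8.31%) among 4246 loci. The dense shares beside both were 3.38% and 6.62%. The gene-poor minus dense difference in the share higher in root, 0.418 percentage points, turned to -0.118 with a pseudocount of 5, -1.06 at 2-fold and -0.0786 with windows of 1 to 8, and that in the share higher in shoot, 2.64 points, fell to 0.321 with a pseudocount of 5. The difference in the shoot-only share, 9.83 points, was 3.66 with detection at 0.1 FPKM, 1.89 at 5 FPKM, 12.6 with windows of 1 to 3, 7.67 with windows of 1 to 8 and 2.90 over loci with a mean of 2 FPKM or more. Over those loci the difference in median level was -1.74 FPKM in root and -0.998 FPKM in shoot, against -3.23 and -2.46, and it was -3.47 in shoot against windows of 30 or more positions. The median span difference of -39.5 bases turned to 351 with windows of 1 to 3, 22.5 with loci placed by midpoint, 158 without spans of 300 or less, 4 without loci listed at 0 and 292 with a mean of 2 FPKM or more, so no direction is given for it. The cause of these changes was not tested. No paired analysis was possible because each organ has 1 library, and no library could be left out.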

Other observations

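Biased loci of the same direction shared a gene-poor window in several places, described after their values were seen. Of the 327 gene-poor windows, 132 held any biased locus. At least 2 loci higher in shoot lay in 20 windows, and at least 2 higher in root in 5. Both directions were found in 14 windows. Whether such sharing exceeds that of other windows was not tested, and the places below are examples. On chromosome 10, chr10:33348931-33353157 was at 0.0722 FPKM in root, with 52.0 FPKM in shoot, and chr10:33743626-33750433 at 0.0266 FPKM in root against 17.1 FPKM in shoot. On chromosome 2, both loci that share the position chr2:129698069-129978892, where the split of reads is uncertain, were higher in root, at 298 and 33.0 FPKM in root against 15.5 and 0.436 FPKM in shoot, beside the abundant chr2:129639285-129640725. On chromosome 3, chr3:97301272-97305466 was at 87.8 FPKM in root, with 3.67 FPKM in shoot, and lay in the window of the root-biased chr3:97014008-97018355. On chromosome 6, chr6:67258196-67260585 was at 25.7 FPKM in root against 0.985 FPKM in shoot, and chr6:67454670-67457143 at 30.9 FPKM in root, with 4.36 FPKM in shoot. That window was mixed, since it also held a locus biased toward shoot. This was 1 of 2 loci that share chr6:67990479-68197269, at 33.3 FPKM in root against 464 FPKM in shoot.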
